A study of Mus musculus with 8 samples.

Results

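Members of the Hippo pathway upstream of Yap were followed in fetal mouse lung, with and without tracheal occlusion (TO). They are the kinases Stk3, Stk4, Lats1 and Lats2, their partners Sav1, Mob1a and Mob1b, and the scaffold genes Nf2, Amotl1 and Amotl2. Each symbol matched 1 Ensembl identifier, so the group holds 10 of the 55385 genes listed for each library. All fetuses were C57BL/6 mice without an engineered allele named in the labels, and whole lung was collected at E18.5. The control group has 4 lungs without occlusion, and the TO group has 4 lungs of fetuses whose trachea had been tied through the uterine wall earlier in gestation, together with a carotid artery and a jugular vein on one side, so any effect of tying those vessels cannot be told apart from that of the occlusion. The dams received progesterone between surgery and collection. The lungs are named control 1 to 4 and TO 1 to 4 after their labels. The lungs come with no record of dam or litter, and p-values measure the spread between these samples.

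The Hippo pathway is a kinase cascade that restrains the coactivators Yap and Taz. Stk3 and Stk4 (also called Mst2 and Mst1), held by the scaffold Sav1, activate Lats1 and Lats2, which work with Mob1a or Mob1b and phosphorylate Yap and Taz so that these stay in the cytoplasm. Merlin, the product of Nf2, and the angiomotin proteins couple the cascade to the cell membrane, cell junctions and actin. Yap is known as mechanosensitive in lung epithelium, and the route by which stretch acts on it was not examined here. The cascade works mainly by phosphorylation, which mRNA counts do not measure.

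Sequencing depth was far from equal. TO 1 yielded 270078 read pairs on genes, and the remaining libraries between 22822261 (control 1) and 35002061 (TO 2). The tests given first use controls 1, 2 and 4 and TO 2, 3 and 4, the lungs that the study's own mRNA analysis shows, and the tests with all 8 libraries follow. Levels are counts relative to library size (CPM, as edgeR returns it), scaled with the trimmed mean of M values (TMM), and log2 fold changes are TO against control.

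The tissue carried the genes that define lung. The 9 lung identity genes summed to 10415, 14972, 10674 and 8588 CPM in controls 1 to 4 and to 6009, 17336, 13166 and 7823 CPM in TO 1 to 4, with Sftpc the most abundant and none at 0 in any library. Genes of neighbouring tissues varied far more. The 12 cardiomyocyte genes, led by Myh6, summed to 831 and 584 CPM in controls 1 and 2, 5909 and 4655 CPM in controls 3 and 4, and 8919, 2622, 3926 and 7047 CPM in TO 1 to 4. All 12 had a log2 fold change above 0 in the 6 libraries (median 1.19) and in all 8 (median 0.89), 0 of them at an unadjusted p under 0.05. The 8 skeletal muscle genes summed to 2641 CPM in TO 1 and to between 22.3 and 304 CPM in the other lungs, where Ckm was the most abundant on average, and 1 of them, Tnnc2, was at 0 in 6 of the 8 lungs, all but controls 2 and 4. Of the 8 genes, 7 were tested, and all 7 had a log2 fold change above 0 in the 6 libraries (median 1.20, 0 at an unadjusted p under 0.05) and in all 8 (median 2.63, 6 at an unadjusted p under 0.05). The 10 thymocyte and T cell genes summed to 486 CPM in TO 1 and to 23.9 CPM in TO 3 and between 2.08 and 5.65 CPM elsewhere, and outside TO 1 Lck was the most abundant on average. In the 6 libraries 5 were tested, all 5 with a log2 fold change above 0 (median 1.86, 1 at an unadjusted p under 0.05). Cd4 was among them, at 0.0876, 0 and 0.121 CPM in controls 1, 2 and 4 and 0.521, 2.27 and 0.397 CPM in TO 2 to 4. Cd4 met the filter of 5 reads in 3 libraries only through the TO lungs, so its sign was favoured by the filter. Of the 10, 8 were at 0 in at least 1 of the lungs other than TO 1, and Dntt was the 1 at 0 in TO 1. TO 1 therefore differed from the rest in tissue markers as well as in depth.

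**Figure D1:**
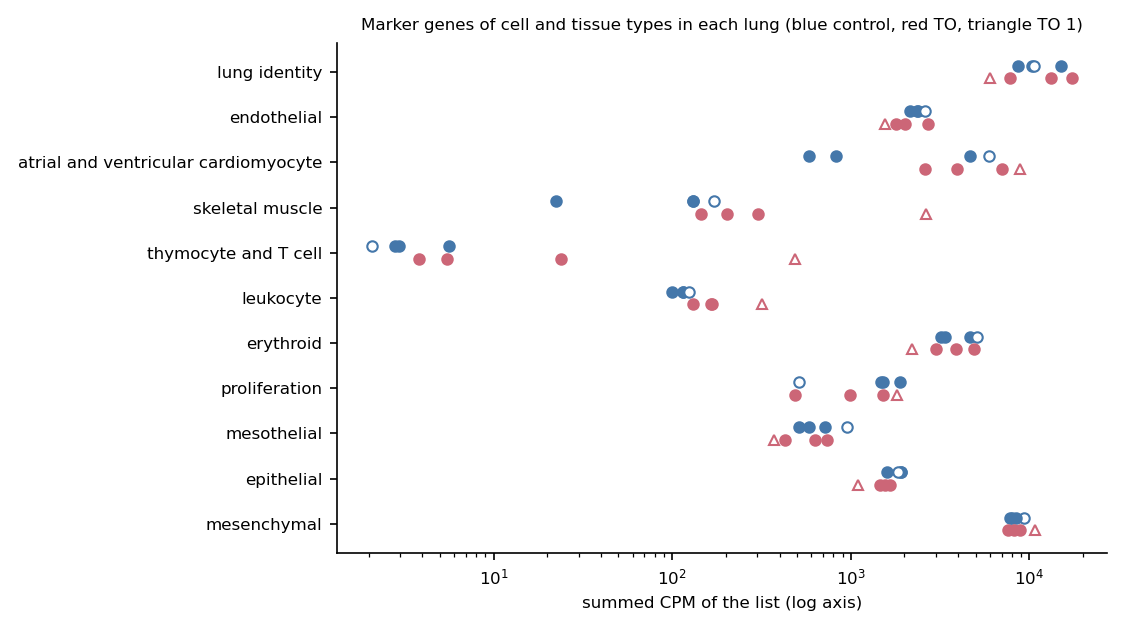
Summed CPM of each marker list (log axis) in each lung, controls in blue and TO in red, with open symbols for control 3 and TO 1 (triangle). Skeletal muscle and thymocyte genes reach 2641 and 486 CPM in TO 1, above every other lung, and cardiomyocyte genes span 584 to 8919 CPM.

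Cell cycle and immune genes also differed between lungs. The 10 proliferation genes, led by Mki67, summed to 1877, 1482, 514 and 1523 CPM in controls 1 to 4 and to 1817, 991, 486 and 1523 CPM in TO 1 to 4, with control 3, TO 3 and TO 2 the lowest. All 10 had a log2 fold change below 0 in the 6 libraries (median -0.74), 1 of them at an unadjusted p under 0.05, and 8 of 10 did in all 8 libraries (median -0.31). The 8 leukocyte genes, led by Csf1r, summed to between 99.9 and 124 CPM in the controls and to 317, 131, 164 and 168 CPM in TO 1 to 4. All 8 had a log2 fold change above 0 in the 6 libraries, 5 of them at an unadjusted p under 0.05, and 0 passed the adjusted test of edgeR. The remaining lists overlapped between the groups or were lower in some TO lungs. Their sums ran from 1555 to 2693 CPM for 10 endothelial genes (most abundant Cdh5), 2210 to 5087 CPM for 7 erythroid genes (Hbb-bs, with Slc4a1 among those at 0 in TO 1), 372 to 954 CPM for 6 mesothelial genes (Krt19), 1093 to 1912 CPM for 6 epithelial genes (Cdh1) and 7623 to 10742 CPM for 7 mesenchymal genes (Col3a1). Whole lung was sequenced, so fewer cells of a type and less RNA per cell cannot be told apart, and the part that these tissue differences play in the values below was not tested.

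None of the 10 genes was called between TO and control lungs by the test across all genes. The quasi-likelihood test of edgeR called 0 of the 10 at an adjusted p under 0.1, where it called 0 of all 21859 genes tested (0%). At an unadjusted p under 0.05 there were 0 of the 10, against 1123 of all genes (5.14%), and DESeq2 called 0 of the 10 and 44 of all genes (0.201%). Control and TO lungs overlapped for each of the 10 genes in the 6 libraries, while they did not overlap for 10.9% of all genes. With all 8 libraries the counts for the 10 genes were again 0, against 2.35% of 22545 genes at an unadjusted p under 0.05 and 2.01% without overlap. The median log2 fold change of the 10 was 0.03, with 6 above 0 and 4 below, beside a median of -0.0045 over all genes tested. With all 8 libraries it was -0.07, with 4 above 0. The count over all genes depends on single lungs, since edgeR called 144 genes without TO 4 and 52 without control 4, and in both of these fits it called 0 of the 10, with 1 of them in each at an unadjusted p under 0.05 (Stk4 at 0.0451 without TO 4, where 10.7% of all genes were, and Mob1b at 0.0358 without control 4, where 6.58% were).

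**Figure D2:**
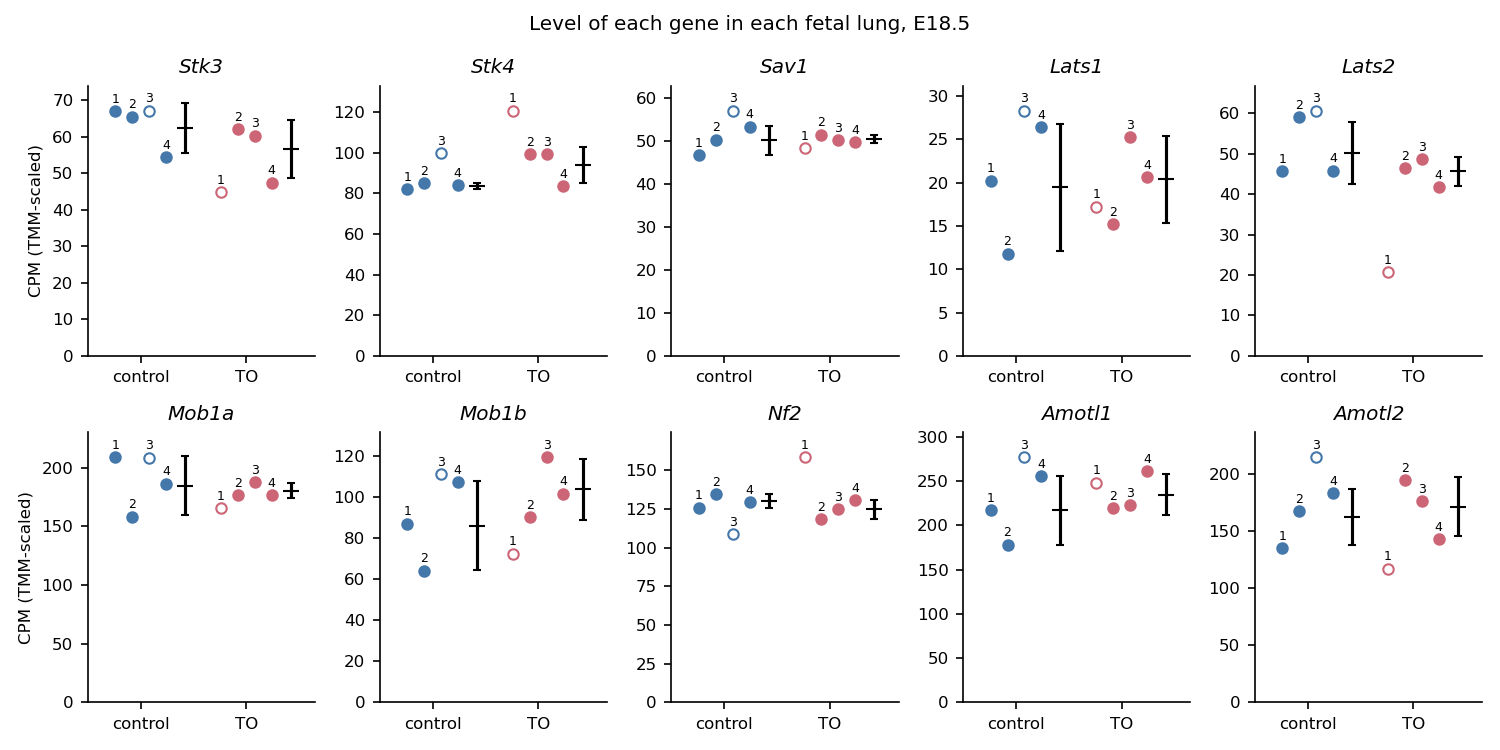
CPM of each of the 10 genes in each lung, numbered by replicate. Filled points are the 6 libraries of the tests given first, whose mean and SD stand beside each group, and open points are control 3 and TO 1. The groups overlap in all 10 panels when the filled points are compared.

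The paired upstream kinases had fold changes of opposite sign. Stk3 (ENSMUSG00000022329.15, chr15:34875496-35178921) encodes Mst2. Its level was 67.0, 65.6, 67.2 and 54.5 CPM in controls 1 to 4 and 44.8, 62.1, 60.3 and 47.5 CPM in TO 1 to 4. Control 4 was the only control near the low TO lungs. The log2 fold change was -0.14 (SE 0.14, 95% interval -0.46 to 0.17; edgeR adjusted p = 0.937) and -0.21 with all 8 libraries (edgeR adjusted p = 1). Stk4 (ENSMUSG00000018209.15, chr2:164070322-164155524) encodes Mst1. It was at 82.1, 84.8, 99.9 and 83.9 CPM in controls 1 to 4 and at 121, 99.1, 99.1 and 83.6 CPM in TO 1 to 4. TO 4 lay among the controls and control 3 among the TO lungs. The log2 fold change was 0.17 (SE 0.11, 95% interval -0.08 to 0.41; edgeR adjusted p = 0.909), and 0.16 with all 8.

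The ratio of both kinases within a lung separated the groups without overlap. As a log2 ratio of counts, Stk3 to Stk4 was -0.29, -0.37, -0.57 and -0.62 in controls 1 to 4 and -1.40, -0.67, -0.72 and -0.82 in TO 1 to 4. Every TO lung was thus below every control, control 4 and TO 2 being the closest. Among single genes, the groups did not overlap for 10.9% in the 6 libraries and 2.01% in all 8. The share among ratios of other gene pairs was not measured. Such a ratio is taken inside each library and does not depend on scaling between libraries. The difference in the 6 libraries was -0.31 (control mean -0.43, SD 0.17; TO mean -0.73, SD 0.07; two-sided exact permutation test, p = 0.1, which is the smallest p that 3 against 3 allows, and 0.4 after Benjamini-Hochberg adjustment over the 4 paralog ratios). With all 8 libraries it was -0.44 (exact permutation p = 0.0286, the smallest that 4 against 4 allows, adjusted p = 0.114), so it did not pass a threshold of 0.05 after adjustment in either set. In TO 1 the ratio rests on 13 read pairs for Stk3 and 35 for Stk4.

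**Figure D3:**
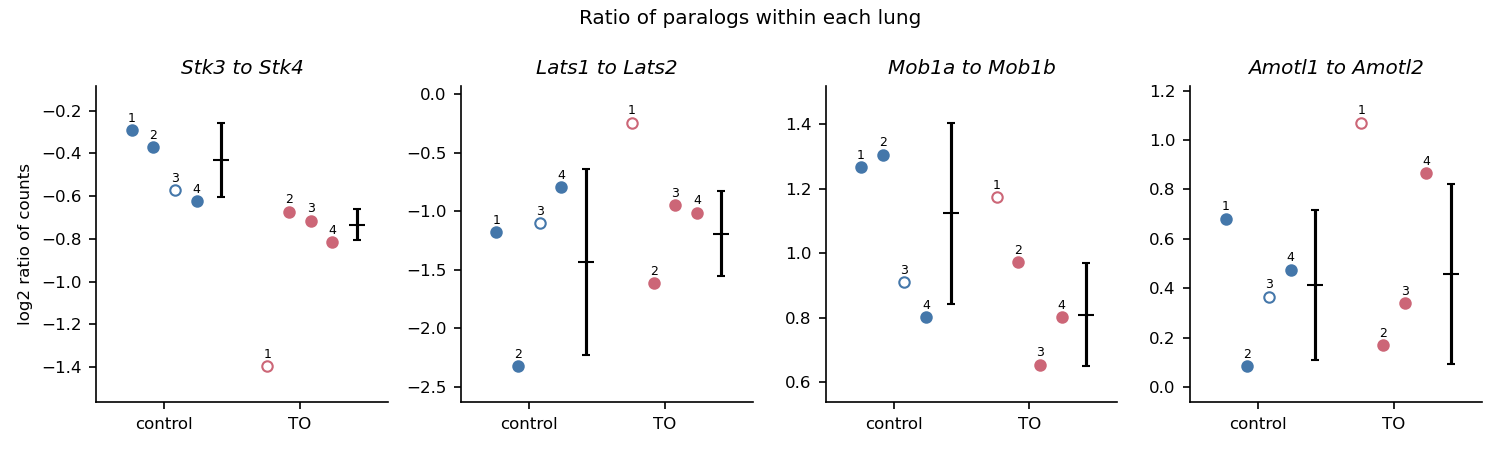
Log2 ratio of the counts of 4 pairs of paralogs in each lung, numbered by replicate, with the mean and SD of the filled points beside each group and open points for control 3 and TO 1. For Stk3 to Stk4 the TO lungs lie between -1.40 and -0.67 and the controls between -0.62 and -0.29. For the other pairs the groups overlap.

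Sav1 (ENSMUSG00000021067.8, chr12:69965012-69987002), the scaffold that joins these kinases to their substrates, was the steadiest of the 10. Its level was 46.7, 50.3, 57.1 and 53.3 CPM in controls 1 to 4 and 48.3, 51.5, 50.2 and 49.7 CPM in TO 1 to 4. The log2 fold change was 0.0083 (SE 0.11, 95% interval -0.25 to 0.26; edgeR adjusted p = 0.996) and -0.047 with all 8 libraries, and only 4.44% of the 10764 genes tested in the 6 libraries with a mean of 10 CPM or more had a smaller SD of log2 CPM over the 7 libraries other than TO 1. These counts cover part of the transcript. Sav1 shares 1336 of its 5265 exon bases (25.4%) with Atl1 on the opposite strand, and read pairs there belong to several genes and were left out of the count without strand, which held between 43.7% and 52.8% of the sum of both strand counts. With that sum the log2 fold change was 0.02, and reads of the 2 genes cannot be told apart in it.

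The kinases that phosphorylate Yap and Taz directly differed in how steady they were. Lats1 (ENSMUSG00000040021.13, chr10:7681214-7716460) was at 20.2, 11.8, 28.3 and 26.4 CPM in controls 1 to 4 and at 17.2, 15.2, 25.3 and 20.7 CPM in TO 1 to 4. Control 2 was lowest and control 3 highest, a 2.40-fold span over the 7 libraries other than TO 1, and 90.5% of genes varied less. The interval of its log2 fold change, 0.06, was accordingly wide (SE 0.30, 95% interval -0.61 to 0.73; edgeR adjusted p = 0.989), and it was -0.11 with all 8 libraries. Lats2 (ENSMUSG00000021959.16, chr14:57689662-57758388), which is itself a target of Yap and so part of a feedback loop, was at 45.8, 59.0, 60.7 and 45.8 CPM in controls 1 to 4 and at 20.7, 46.5, 48.7 and 41.7 CPM in TO 1 to 4. Controls 2 and 3 were above every TO lung, and controls 1 and 4 lay among them. The log2 fold change was -0.14 (SE 0.14, 95% interval -0.45 to 0.17; edgeR adjusted p = 0.937) and -0.31 with all 8 libraries (edgeR adjusted p = 1), where TO 1 contributes 6 read pairs. The log2 ratio of Lats1 to Lats2 ran from -2.32 in control 2 to -0.24 in TO 1, and its difference was 0.24 in the 6 libraries (two-sided exact permutation p = 0.7, adjusted p = 0.9).

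The count of Lats2 also covers part of its transcript. Of its 6971 exon bases 2955 (42.4%) lie in exons of Gm49361, an annotated gene on the same strand. Of the 3287 exon bases of Gm49361, 0 lie outside other genes, and it had 0 read pairs in each of the 8 libraries. Pairs on shared exons count for neither gene. The level of Lats2 therefore comes from the other 4016 bases. No exon base of the remaining 8 genes is shared with another gene. Among 50-base words of the longest protein-coding transcript, 52.0% of those of Sav1 recur in Atl1 and 56.5% of those of Lats2 in Gm49361, and at most 0.235% of those of each other gene recur elsewhere, so the paralogs can be told apart by stretches of 50 bases.

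Yap and Taz act on genes through Tead factors, whose binding motif has the core GGAATG, or CATTCC on the other strand. Both spellings were searched in the RefSeq windows (GRCm38.p6) from 250 bases before to 50 bases after a start site, which matched 9 of the 10 genes, all but Stk3, with 11 windows. The letters stand in 1 window each of Sav1, Lats2, Mob1a and Amotl2, and in 14.7% of all 32851 windows. A pair of these windows is shown, 5′ to 3′ on the strand of the gene with the motif in capitals, because Lats2 and Amotl2 are the members known as Yap targets. That of Lats2 is chr14:57746074-57746373 (minus strand), where the motif starts at base 5 of the transcript, and that of Amotl2 is chr9:102717554-102717853 (plus strand), where it starts 65 bases before the start site. A match says only that the letters are present.
Lats2: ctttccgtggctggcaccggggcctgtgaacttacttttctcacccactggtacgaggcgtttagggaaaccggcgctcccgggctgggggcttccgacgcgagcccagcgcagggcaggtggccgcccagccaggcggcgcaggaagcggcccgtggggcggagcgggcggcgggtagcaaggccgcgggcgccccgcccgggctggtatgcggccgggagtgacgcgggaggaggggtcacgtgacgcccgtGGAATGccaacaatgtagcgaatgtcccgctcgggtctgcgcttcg
Amotl2: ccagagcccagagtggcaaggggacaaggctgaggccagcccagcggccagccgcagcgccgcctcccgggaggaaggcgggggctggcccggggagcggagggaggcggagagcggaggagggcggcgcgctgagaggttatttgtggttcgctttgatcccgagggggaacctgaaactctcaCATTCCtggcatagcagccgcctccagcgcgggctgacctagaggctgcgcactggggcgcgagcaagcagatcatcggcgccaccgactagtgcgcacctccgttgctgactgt

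The Mob1 adaptors, which bind and activate the Lats kinases, had the largest fold change of the 10 in the 6 libraries, that of Mob1b, while that of Lats2 was largest in all 8. Mob1a (ENSMUSG00000043131.14, chr6:83326016-83343776) was at 209, 158, 209 and 187 CPM in controls 1 to 4 and at 166, 177, 188 and 177 CPM in TO 1 to 4. The TO lungs lay inside the range of the controls, with a log2 fold change of -0.03 (SE 0.12, 95% interval -0.31 to 0.24; edgeR adjusted p = 0.982) and -0.10 with all 8 libraries. Mob1b (ENSMUSG00000006262.15, chr5:88720855-88764220) was at 86.9, 64.1, 111 and 107 CPM in controls 1 to 4 and at 72.4, 90.2, 119 and 102 CPM in TO 1 to 4. Control 2 was the low library, as it was for Lats1 and Mob1a. The log2 fold change of Mob1b was 0.27 (SE 0.19, 95% interval -0.16 to 0.69; edgeR adjusted p = 0.909) and 0.10 with all 8 libraries. The log2 ratio of Mob1a to Mob1b differed by -0.32 in the 6 libraries (two-sided exact permutation p = 0.3, adjusted p = 0.6).

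**Figure D4:**
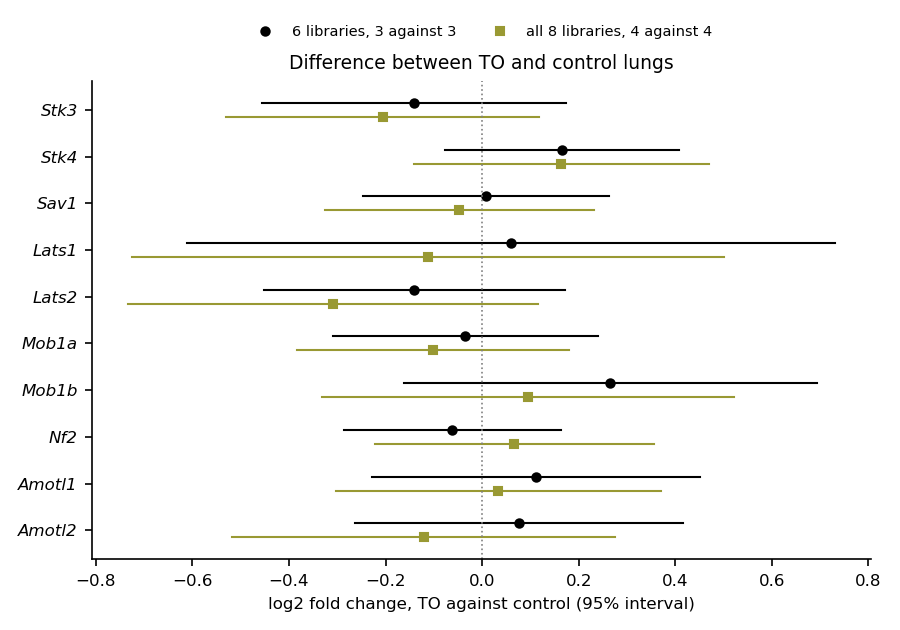
Log2 fold change of TO against control for the 10 genes, with 95% intervals from the edgeR fit, for the 6 libraries (circles) and all 8 (squares). Every interval includes 0, and with 6 libraries 8 of the 10 lie within 0.5 on either side of it.

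Of the membrane-linked scaffolds, Nf2 varied little. Nf2 (ENSMUSG00000009073.16, chr11:4765845-4849536) was at 126, 135, 109 and 130 CPM in controls 1 to 4 and at 159, 119, 125 and 131 CPM in TO 1 to 4. Apart from TO 1, the TO lungs lay inside the range of the controls, and the log2 fold change was -0.06 (SE 0.10, 95% interval -0.29 to 0.16; edgeR adjusted p = 0.966) and 0.067 with all 8 libraries. Amotl1 (ENSMUSG00000013076.17, chr9:14541966-14645056), an angiomotin that can hold Yap at junctions, was at 217, 178, 277 and 255 CPM in controls 1 to 4 and at 248, 219, 223 and 261 CPM in TO 1 to 4. All TO lungs lay inside the range of the controls, which was widest between controls 2 and 3. Its log2 fold change was 0.11 (SE 0.15, 95% interval -0.23 to 0.45; edgeR adjusted p = 0.957) and 0.034 with all 8 libraries.

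Amotl2 (ENSMUSG00000032531.15, chr9:102716672-102733418), an angiomotin that is also a Yap target, was at 135, 168, 215 and 184 CPM in controls 1 to 4 and at 117, 195, 176 and 143 CPM in TO 1 to 4. Low and high lungs were found in both groups. Its log2 fold change was 0.08 (SE 0.15, 95% interval -0.26 to 0.42; edgeR adjusted p = 0.975) and -0.12 with all 8 libraries. The log2 ratio of Amotl1 to Amotl2 differed by 0.04 (two-sided exact permutation p = 0.9, adjusted p = 0.9). Amot, the third angiomotin, was much lower than either, at 28.2, 19.4, 17.8 and 23.2 CPM in controls 1 to 4 and 24.1, 21.9, 21.9 and 22.6 CPM in TO 1 to 4 (log2 fold change -0.09, SE 0.17).

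Levels of Amotl2 and of a Yap target were correlated from lung to lung. Ccn2, a secreted matricellular protein and a standard Yap target, was at 51.2, 63.6, 121 and 65.2 CPM in controls 1 to 4 and at 31.0, 89.1, 86.1 and 59.0 CPM in TO 1 to 4. Control 3 was the highest and TO 1 the lowest lung for both genes. Over the 7 libraries other than TO 1, log2 CPM of Amotl2 and Ccn2 had a Pearson r of 0.899 (exact permutation p = 0.00476, adjusted p = 0.0333 over 7 relations) and a Spearman rho of 0.964 (exact permutation p = 0.00278, adjusted p = 0.0194). Without control 1 and TO 4, the lungs farthest from the median of Amotl2, r was 0.86. In all 8 libraries r was 0.943 (exact permutation p = 0.000521, adjusted p = 0.00365). Of 10765 other genes at a mean of 10 CPM or more, 50 (0.464%), Ccn2 among them, had an r with Amotl2 of 0.899 or higher over the 7 libraries. The 3 lungs highest in Ccn2, control 3, TO 2 and TO 3, were those lowest in proliferation genes, whose part was not tested. Of the exon bases of Ccn2, 23.2% are shared with other genes and were not counted.

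**Figure D5:**
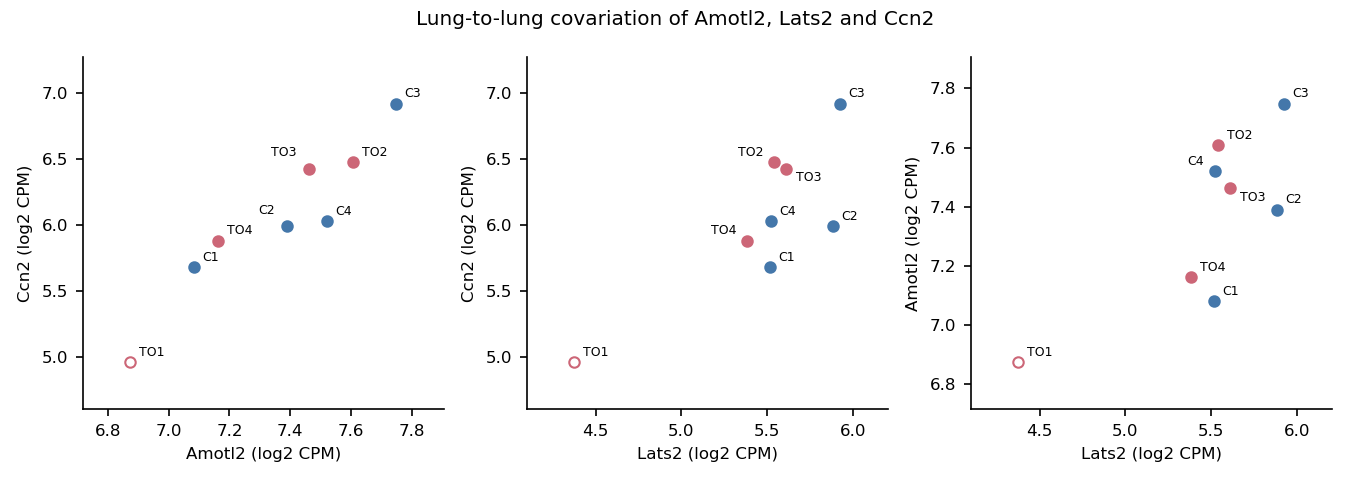
Log2 CPM of Ccn2 against Amotl2, Ccn2 against Lats2 and Amotl2 against Lats2, 1 point per lung (C control in blue, TO in red, TO1 open). Ccn2 and Amotl2 line up across both groups (r = 0.899 over the 7 filled points), while those of Lats2 are weaker without TO 1.

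The other relations were weaker. Lats2 had r = 0.564 with Amotl2 (exact permutation p = 0.174, adjusted p = 0.347; rho = 0.643, exact permutation p = 0.139, adjusted p = 0.324; r = 0.555 without controls 2 and 3) and r = 0.551 with Ccn2 (exact permutation p = 0.198, adjusted p = 0.347; rho = 0.714, exact permutation p = 0.0881, adjusted p = 0.308; r = 0.592 without controls 2 and 3). With all 8 libraries these became 0.776 and 0.828, each with an adjusted p of 0.0313 by the exact permutation test, so passing the threshold of 0.05 rests on TO 1. Paralogs did not follow each other beyond what permutation gives. Pearson r was 0.341 for Stk3 with Stk4, -0.132 for Lats1 with Lats2, 0.593 for Mob1a with Mob1b and 0.262 for Amotl1 with Amotl2 (exact permutation p = 0.441, 0.805, 0.163 and 0.569, adjusted p = 0.618, 0.805, 0.347 and 0.664). Spearman rho was 0.357, 0.143, 0.393 and 0.464 (exact permutation p = 0.444, 0.782, 0.396 and 0.302, adjusted p = 0.518, 0.782, 0.518 and 0.518). Without the lungs farthest from the median of the first gene, r was -0.54, 0.172, 0.602 and -0.0983.

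The genes most like Lats2 over the 7 libraries, among 10766 of all genes listed with a mean of 10 CPM or more, were Rpl23 (r = 0.982), Rplp0 (r = 0.981) and Wdr45 (r = 0.979). For Amotl2 they were Wdtc1 (r = 0.978), Tgfa (r = 0.966) and Ugp2 (r = 0.96). These are the extremes of a search over all genes and were not tested.

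Specimen names that end in the same 4 digits divide the lungs into 3 sets, controls 1 and 4 with TO 1 and 4, control 2 with TO 2, and control 3 with TO 3. What the digits stand for is not given in the sources used here. Over all genes tested, deviations from the group mean correlated between 0.0221 and 0.157 for control and TO lungs of one set and between -0.164 and 0.00453 for those of different sets. Within the sets, leaving out TO 1, the log2 difference of TO from control was below 0 in 3 of 3 sets for Stk3 (-0.35, -0.08 and -0.16) and for Lats2 (-0.14, -0.34 and -0.32), and above 0 in 3 of 3 for Mob1b (0.07, 0.49 and 0.10). The other 7 genes had both signs. So 3 of the 10 (30.0%) had one sign in every set, against 24.1% of all genes tested. The log2 ratio of Stk3 to Stk4 was lower in TO in 3 of 3 sets (-0.36, -0.30 and -0.14), as was that of Mob1a to Mob1b (-0.23, -0.33 and -0.26). With these sets as a block and all 8 libraries, the log2 fold change of Lats2 was -0.31, with an unadjusted p of 0.0492 and an adjusted p of 0.974 by edgeR. It was the 1 of the 10 under 0.05 in that fit, against 5.11% of all genes. Ccn2 and Amotl2 had the same order of lungs within each set when TO 1 is left out, and no set has enough lungs for a correlation of its own.

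Levels of different genes were set side by side as CPM per kilobase of exon that lies in no other gene, over the 7 libraries other than TO 1. Mob1a was highest at 38.9 (SD 3.80), followed by Amotl2 at 27.6 (SD 4.45), Amotl1 at 23.1 (SD 3.34) and Nf2 at 18.3 (SD 1.26). Stk4 at 15.4 (SD 1.45), Sav1 at 13.1 (SD 0.826), Lats2 at 12.4 (SD 1.80) and Stk3 at 9.91 (SD 1.20) formed the middle, and Mob1b at 6.46 (SD 1.23) and Lats1 at 2.90 (SD 0.831) were lowest. Sav1 and Lats2 differ by less than the SD of both, and Amotl1 exceeded Amotl2 in control 1, TO 1 and TO 4. Lats2 stood above Lats1 in every one of the 8 libraries on this scale, Stk4 above Stk3, and Mob1a above Mob1b. The scale takes all annotated exons of a gene, which can be far longer than a transcript. The longest protein-coding transcript has 2914 bases for Stk3 (6114 exon bases), 5232 for Stk4 (5860) and 2524 for Sav1 (5265). Per base of that transcript the means of Stk3 and Stk4 would change order, so ranks depend on the length used. Per kilobase of all exons, with shared bases included, Lats2 would stand at 7.13 and Sav1 at 9.74.

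Of the effectors that the cascade controls, Yap1, Wwtr1 and the Tead genes had log2 fold changes within 0.2 of 0 in the 6 libraries. Of 10 effector genes 9 were tested and edgeR called 0, with 1 at an unadjusted p under 0.05 and 4 above 0 (1 above 0 with all 8 libraries). Yap1 was at 168, 184, 177 and 183 CPM in controls 1 to 4 and at 134, 189, 181 and 174 CPM in TO 1 to 4 (log2 fold change 0.02, 95% interval -0.20 to 0.24; edgeR adjusted p = 0.985). Wwtr1, which encodes Taz, ranged from 260 to 408 CPM in the controls and from 166 to 313 CPM in the TO lungs (log2 fold change 0.06, and -0.24 with all 8 libraries). The Tead genes had log2 fold changes of -0.09 (Tead1), -0.18 (Tead2), -0.15 (Tead3) and -0.0093 (Tead4), and of -0.32, -0.16, -0.042 and -0.11 with all 8 libraries, with TO 1 lowest of the 8 lungs for Tead1, Tead2 and Tead4. Vgll3, a Tead cofactor, had the highest value among effectors at 5 CPM or more, 0.16. The 1 at an unadjusted p under 0.05 was Vgll2, a cofactor known from skeletal muscle, which had 2, 1, 0 and 1 read pairs in controls 1 to 4 and 1, 28, 6 and 10 in TO 1 to 4. It met the filter of 5 reads in 3 libraries only through TO 2, 3 and 4, which favours a higher value in TO. Its log2 fold change was 2.996 (SE 1.15; edgeR adjusted p = 0.907), the highest of the list, and 3.85 with all 8 libraries. With no filter on counts the unadjusted p of edgeR was 0.0547. Because of that filter, no conclusion is drawn from its fold change or p. Its CPM was higher in TO 2, 3 and 4 than in every control. In TO 1 its 3.45 CPM rests on 1 read pair at low depth and cannot show a difference. Vgll2 was named after its values were seen. The part of skeletal muscle in its value was not tested.

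Regulators above the 10 genes had a median near 0. Of 37 upstream regulators tested, edgeR called 0, with 18 above 0 and 19 below and a median log2 fold change of -0.00093 (13 above 0 and a median of -0.061 with all 8 libraries). Their extremes were Fjx1, a Golgi kinase of the Fat and Dachsous route (0.33, but -0.039 without TO 2), and Fat2, a cadherin (-0.41, but 0.074 with all 8 libraries). The most abundant were Ctnna1 (-0.06) and Tjp1 (-0.04), which sit at cell junctions (-0.15 and -0.30 with all 8 libraries). Ajuba, a LIM protein that binds Lats kinases, was the 1 at an unadjusted p under 0.05. It was at 107, 111, 78.5 and 101 CPM in controls 1 to 4 and at 75.8, 93.0, 76.2 and 84.9 CPM in TO 1 to 4 (log2 fold change -0.33, SE 0.11; edgeR adjusted p = 0.907; -0.26 with all 8 libraries), and it too was named after its values were seen. Control 3 lay among the TO lungs.

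Of 17 polarity genes edgeR called 0, with 1 at an unadjusted p under 0.05, 5 above 0 and a median of -0.05 (3 above 0 and a median of -0.12 with all 8 libraries). Llgl2, which marks the basolateral side of epithelial cells, was the lowest among those at 5 CPM or more. It was at 147, 180, 134 and 152 CPM in controls 1 to 4 and at 93.1, 147, 124 and 108 CPM in TO 1 to 4 (log2 fold change -0.34, SE 0.14; edgeR adjusted p = 0.907; -0.34 with all 8 libraries). Of the 6 epithelial genes, whose sums overlapped between the groups, 6 were below 0 with a median of -0.27, 2 at an unadjusted p under 0.05, and 0 were called. Their part in the value of Llgl2 was not tested. Among the polarity genes at 5 CPM or more, Pard6b was highest at 0.17 (-0.18 with all 8 libraries, and 0.042 to 0.41 when each of the 6 was left out). The abundant Prkci and Dlg1 stood at 0.0033 and -0.05 (-0.22 and -0.12 with all 8 libraries).

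The STRIPAK phosphatase complex removes phosphate from Stk3 and Stk4. Of its 15 genes edgeR called 0, with 7 above 0 and a median of -0.0036 (7 above 0 and a median of -0.015 with all 8 libraries). Strip2 was highest at 1.07 (SE 0.76), 1.01 with all 8 libraries, and 0.34 to 2.49 when each of the 6 was left out, with 5.21, 3.35, 30.2 and 25.7 CPM in controls 1 to 4 and 96.5, 9.14, 19.8 and 42.8 CPM in TO 1 to 4. The lungs low in Strip2, controls 1 and 2, were those low in cardiomyocyte genes, whose part was not tested. Sike1 was the 1 at an unadjusted p under 0.05 (log2 fold change 0.26, SE 0.11; edgeR adjusted p = 0.907), named after its values were seen. Ppp2r1a and Ppp2ca, scaffold and catalytic subunits of the phosphatase and the most abundant of the list, stood at -0.18 and -0.05, and 41.3% of the exon bases of Ppp2ca are shared with other genes. Of 15 genes for degradation and 14-3-3 binding edgeR called 0, with 5 above 0 and a median of -0.09 (3 above 0 and a median of -0.11 with all 8 libraries). Wwp1 was highest at 0.19 (-0.24 with all 8 libraries) and Ywhae lowest at -0.23 (-0.18). The abundant ubiquitin ligase Nedd4 stood at 0.0044 (-0.19 with all 8 libraries).

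Of 22 Yap and Taz targets, which include Lats2 and Amotl2, edgeR called 0 and DESeq2 called 1, with 15 above 0 and 7 below and a median log2 fold change of 0.08. In all 8 libraries 9 were above 0 and the median was -0.05. Igfbp3, an IGF-binding protein, was the gene that DESeq2 called and was named after its values were seen. It was at 28.9, 27.9, 59.6 and 40.3 CPM in controls 1 to 4 and at 68.9, 47.2, 121 and 48.9 CPM in TO 1 to 4 (edgeR log2 fold change 1.15, adjusted p = 0.907; DESeq2 adjusted p = 0.0771), and the edgeR value was 0.58 without TO 3 and 0.87 with all 8 libraries. Control 3 lay above TO 2 and TO 4. Tgfb2, a TGF-beta ligand named as the lowest of the list, was at 195, 141, 136 and 163 CPM in controls 1 to 4 and at 114, 107, 105 and 133 CPM in TO 1 to 4 (log2 fold change -0.53, SE 0.15; edgeR adjusted p = 0.907; -0.47 with all 8 libraries). Every TO lung was below every control in the 8 libraries, as also for Arhgef17 of this list. Over all genes, 2.01% had no overlap between the groups in the 8 libraries.

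The targets Ccn2, Ccn1 and Ankrd1 were above 0 in the 6 libraries and had mixed signs in all 8. Ccn2 had a log2 fold change of 0.37 in the 6 libraries (SE 0.17, 95% interval -0.01 to 0.76; edgeR adjusted p = 0.907) and of -0.08 with all 8. Ccn1 was at 55.7, 67.0, 156 and 64.1 CPM in controls 1 to 4 and at 48.3, 66.7, 85.5 and 52.1 CPM in TO 1 to 4, with log2 fold changes of 0.12 and -0.39. Control 3 was the highest lung for both and stood outside the 6 libraries. Ankrd1, a target that cardiomyocytes also express strongly, was at 17.4, 9.48, 344 and 251 CPM in controls 1 to 4 and at 124, 132, 288 and 267 CPM in TO 1 to 4 (log2 fold change 1.30, SE 0.99; 0.42 with all 8 libraries, and 0.77 to 4.10 when each of the 6 was left out). Its low lungs, controls 1 and 2, had the fewest counts of cardiomyocyte genes, and their part was not tested. The abundant Arhgef17 and Myof stood at -0.13 and -0.16 (-0.21 and -0.26 with all 8 libraries).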

How the data were processed

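Whole lungs of 4 control and 4 TO fetuses were sequenced. The authors made NexteraXT libraries, aligned the reads with STAR to GRCm38, and deposited raw counts for each gene, in versions of tool and annotation that the sources used here do not give. Depth per library is given with the results. Per library, the entries that name no gene (unmapped 3.31% to 3.82%, several places 3.76% to 4.28%, no gene 9.64% to 14.9%, several genes 5% to 5.74%) stayed out of the tests. Counts without strand were used, since each strand held 49.9% to 50.1%. Without version, 55144 of 55385 identifiers match GENCODE M21, the source of symbols and coordinates.

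The test was the quasi-likelihood test of edgeR 4.0.16 in R 4.3.3, after TMM scaling, for genes that reached 5 reads in 3 libraries, with Benjamini-Hochberg adjustment over all of them and a threshold of 0.1. DESeq2 1.42.0, the study's tool, was an alternative. CPM used TMM factors of all 8 libraries and log2 CPM a prior count of 2. Ratios of counts had 0.5 added to each count, and ratios and correlations were tested by two-sided exact permutation in Python 3.11.15 (numpy 2.4.6, scipy 1.17.1, matplotlib 3.10.9) at a threshold of 0.05. The fit was tested on simulated data. Without molecular identifiers, duplicates of a molecule cannot be told apart from separate molecules, and no interval is given for single counts.

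The members and lists were chosen with earlier results of these data known. Named are the 10 members. Of each other pathway list (upstream regulators, polarity proteins, STRIPAK phosphatase, degradation and 14-3-3, effectors, Yap and Taz targets) every gene called is named, the highest and the lowest log2 fold change at a mean of 5 CPM or more, and the 2 most abundant genes. Also named are Yap1, Wwtr1, Tead1 to Tead4, Amot, Ccn1 and Ccn2, the most abundant gene of each cell type list with any at 0, and the 3 genes most like Lats2 and Amotl2. Ajuba, Sike1, Vgll2 and Igfbp3 were added after their values were seen, for an unadjusted p under 0.05. Left unreported is 1 further gene that falls under the rule, and it stays in the sum of its list. Frmd1 and Ahsp matched no identifier. Alternatives were all 8 or 7 libraries, other filters and scalings, blocks by replicate number or specimen name, and each library left out in turn. The sum of both strand counts was added after seeing the data. A comparison of the paralogous proteins was planned and not made, as no table of proteins was at hand.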

Additional observations from a re-analysis of the deposited data

Results flagged for a closer look

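Of 50 sets of 4 lungs examined (2 groups for each of 10 genes, 4 ratios and 11 marker lists), 4 held a lung far from the others of its group. How often chance gives such a set was not measured, and sets that share lungs are not independent, so these are listed without a test. Stk3 was low in control 4, at 54.5 CPM, while the other controls lay between 65.6 and 67.2 CPM. Stk4 was high in control 3, at 99.9 CPM, while the other controls lay between 82.1 and 84.8 CPM. TO 1 was far above the other TO lungs in summed skeletal muscle genes, at 2641 CPM, and in summed thymocyte and T cell genes, at 486 CPM.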

How the results depend on the processing

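Under 17 alternatives each, the 10 members gave 170 log2 fold changes, of which 144 kept their sign and none passed the adjusted test. 4 members kept their sign throughout, though not their size. When each library was left out, Stk3 ran from -0.23 to -0.024, Lats2 from -0.20 to -0.0036, Stk4 from 0.13 to 0.25 and Mob1b from 0.098 to 0.46. The number of members called was 0 under every alternative run. The median log2 fold change of the 10 lay near 0 with either sign (0.034 in the 6 libraries, -0.075 with all 8, -0.036 with 7), and ran from -0.011 to 0.11 when each library was left out in turn. The number of genes called over the whole table was 0 in edgeR with all 8 libraries, 7 libraries, 5 reads in every library, other scaling, or both strand columns summed (an alternative chosen after seeing the data). It was 44 with DESeq2 and 40 with no filter on counts, and ran from 0 to 144 when each library was left out. Igfbp3 passed the threshold with DESeq2 (1.17) and with no filter (1.15), and Ankrd1 without control 4 (4.10). Igfbp3 fell to 0.58 without TO 3. The cause of these differences was not tested.

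Titles give control and TO lungs the same replicate numbers but do not say that these pair lungs, so the main fit has no block. Same-numbered lungs correlated at 0.0518, 0.130, 0.157 and 0.0709 in their deviations from the group means. For controls 2, 3 and 4 the same-numbered TO lung correlated best. Control 1 correlated best with TO 4 (0.0971), which has the same specimen name digits. Lungs of different numbers ran from -0.164 to 0.0971. Whether lungs are paired was not tested. In the 6 libraries only numbers 2 and 4 occur in both groups, so the replicate block there rests on 2 pairs. With it edgeR called 219 genes in the 6 libraries and 3 in all 8, and 0 of the 10 members in both. Strip2 (1.07) and Ankrd1 (1.86) passed the threshold with that block in the 6 libraries, where Igfbp3 fell to 0.52, and blocks changed no other call. With the block by number in all 8 libraries, the log2 fold change of Lats2 was -0.35, at an unadjusted p of 0.0445 and an adjusted p of 1 by edgeR, where 4.40% of all genes had an unadjusted p under 0.05. As mean differences between same-numbered lungs, the log2 ratios were -0.44 for Stk3 to Stk4, 0.39 for Lats1 to Lats2, -0.17 for Mob1a to Mob1b and 0.21 for Amotl1 to Amotl2. With every lung in a pair, these equal the differences of group means in all 8 libraries by construction. They are therefore no separate check. The replicate block in the 6 libraries turned the sign of Sav1 (-0.031), Mob1a (0.044), Amotl2 (-0.067), Ctnna1 (0.015), Pard6b (-0.12), Dlg1 (0.033), Ppp2ca (0.064), Wwp1 (-0.092), Vgll3 (-0.20), Wwtr1 (-0.051), Yap1 (-0.014), Tead4 (0.013), Amot (0.069) and Ccn1 (-0.15). In all 8 libraries it turned that of Sav1 (-0.067), Lats1 (-0.072), Nf2 (0.071), Amotl2 (-0.15), Fat2 (0.33), Pard6b (-0.22), Prkci (-0.21), Wwp1 (-0.23), Nedd4 (-0.18), Vgll3 (-0.098), Wwtr1 (-0.26), Yap1 (-0.060), Amot (0.10), Ccn1 (-0.37) and Ccn2 (-0.13).

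Signs turned in other settings too, among them those of Fat2, Fjx1 and Ccn2, which were not near 0. With all 8 libraries and no block they turned for Sav1 (-0.047), Lats1 (-0.11), Nf2 (0.067), Amotl2 (-0.12), Fat2 (0.074), Pard6b (-0.18), Prkci (-0.22), Wwp1 (-0.24), Nedd4 (-0.19), Vgll3 (-0.025), Wwtr1 (-0.24), Yap1 (-0.045), Amot (0.012), Ccn1 (-0.39) and Ccn2 (-0.079), and with all but TO 1 for Sav1 (-0.039), Lats1 (-0.091), Amotl2 (-0.032), Pard6b (-0.15), Prkci (-0.18), Wwp1 (-0.15), Nedd4 (-0.11), Vgll3 (-0.063), Wwtr1 (-0.10) and Ccn1 (-0.34). With the specimen name digits as a block they turned for Sav1 (-0.050), Lats1 (-0.038), Nf2 (0.066), Amotl2 (-0.13), Fat2 (0.28), Pard6b (-0.21), Prkci (-0.21), Wwp1 (-0.23), Nedd4 (-0.17), Vgll3 (-0.14), Wwtr1 (-0.24), Yap1 (-0.044), Amot (0.063), Ccn1 (-0.34) and Ccn2 (-0.067). Tead4 turned with 5 reads in every library (0.00023), DESeq2 (0.0030), RLE scaling (0.0031) and upper-quartile scaling (0.0044). Leaving out each of the 6 libraries in turn gave both signs for Sav1 (-0.036 to 0.058), Mob1a (-0.13 to 0.067), Amotl2 (-0.033 to 0.20), Tjp1 (-0.13 to 0.070), Dlg1 (-0.085 to 0.026), Ppp2ca (-0.089 to 0.026), Yap1 (-0.014 to 0.058), Tead4 (-0.080 to 0.072), Amot (-0.21 to 0.056), Lats1 (-0.19 to 0.35), Amotl1 (-0.0081 to 0.25), Prkci (-0.035 to 0.090), Nedd4 (-0.072 to 0.068), Fjx1 (-0.039 to 0.65), Tead1 (-0.17 to 0.0093), Wwp1 (-0.089 to 0.40), Vgll3 (-0.091 to 0.44) and Ccn1 (-0.058 to 0.29), and the ratio ranged from -0.40 to -0.24 for Stk3 to Stk4, -0.20 to 0.56 for Lats1 to Lats2, -0.48 to -0.22 for Mob1a to Mob1b and -0.16 to 0.19 for Amotl1 to Amotl2. None of the sign changes concerned a called value, and their cause was not tested.

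Adding TO 1 to the correlations gave r = -0.345 for Stk3 with Stk4 and 0.126 for Lats1 with Lats2, both of the other sign, and r = 0.776 for Lats2 with Amotl2 and 0.828 for Lats2 with Ccn2, both past the threshold by the exact permutation test. In that library Lats2 has 6 and Lats1 5 read pairs, so depth limits what it can show.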
